A study of Mus musculus with 12 samples.

Results

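The contacts of the promoters of Spic and Marco are described here in haematopoietic stem cells (HSCs) of the fetal and the adult mouse. Among promoters with at least 20 called contacts, these genes have the highest log2 ratios of fetal to adult calls, and they were chosen by that excess, so the excess itself is a description and supports nothing. Every listed contact whose gene name was Spic or Marco was taken, which gave 41 of 89545 listed contacts (21 for Spic and 20 for Marco) and 2 of 3781 promoter entries. The series used promoter Capture-C, in which cross-linked chromatin is cut with DpnII and religated, and probes then enrich the ligation products of chosen promoters. It holds 12 samples, of which 4 libraries each of fetal and adult HSCs are used here, and both promoters were captured in the first batch alone, where each population had 2 libraries. Fetal HSCs came from the fetal liver at embryonic day 14.5 and adult HSCs from the bone marrow of mice aged 6 to 8 weeks. Both came from B6129SF1 mice and were sorted as Lin-Sca1+cKit+CD135-, a gate that also admits early multipotent progenitors, and no gene alteration is named for either. The HPC7 cell line samples were not analysed here. The deposited table gives 1 value per population and batch, without replicates, and differences between the populations were therefore left untested. A contact joins a captured promoter fragment to a distal bin of 2 kb. It counted as called in a population where its deposited score, which behaves as −log10 of a p-value, was above 0.

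Spic is an ETS transcription factor of the same subfamily as PU.1. It is known for the development of red pulp macrophages of the spleen, which take up aged red cells and recycle their iron, and haem induces it in monocytes by relieving repression by Bach1. Marco is a scavenger receptor with a collagen-like stalk, by which subsets of tissue macrophages bind bacteria and particles. The fetal liver holds many macrophages, some at the centre of islands of maturing red cells.

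In the build of the deposited table, mm9, the Spic fragment covered chr10:88147595-88148038 (444 bp, transcript ENSMUST00000138734) and the Marco fragment chr1:122400034-122401717 (1684 bp, transcript ENSMUST00000027639). The promoter sequences below are RefSeq's in another build, GRCm38.p6, and hold the 250 bases before each gene's start on the minus strand, 5′ to 3′. Those of Spic and Marco show the annotated promoters of the members, and that of Chpt1 is added because the bin that holds its promoter was the highest-scoring contact of Spic. The RefSeq start was not matched to the captured transcript or fragment, so a window may lie outside the captured fragment. Capitals mark TGCTGA in Spic, GAGGAA in Marco and each CG pair in Chpt1.
Spic, chr10:88683024-88683273: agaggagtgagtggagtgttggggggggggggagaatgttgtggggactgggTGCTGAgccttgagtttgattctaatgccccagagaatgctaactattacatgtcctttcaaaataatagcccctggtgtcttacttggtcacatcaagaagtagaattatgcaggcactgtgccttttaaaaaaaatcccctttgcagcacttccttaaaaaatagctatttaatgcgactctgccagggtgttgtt
Marco, chr1:120505025-120505274: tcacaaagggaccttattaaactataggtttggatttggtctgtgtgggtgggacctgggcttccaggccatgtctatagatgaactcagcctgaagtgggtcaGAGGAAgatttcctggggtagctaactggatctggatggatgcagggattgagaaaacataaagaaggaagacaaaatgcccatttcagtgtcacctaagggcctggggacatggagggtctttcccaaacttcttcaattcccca
Chpt1, chr10:88503971-88504220: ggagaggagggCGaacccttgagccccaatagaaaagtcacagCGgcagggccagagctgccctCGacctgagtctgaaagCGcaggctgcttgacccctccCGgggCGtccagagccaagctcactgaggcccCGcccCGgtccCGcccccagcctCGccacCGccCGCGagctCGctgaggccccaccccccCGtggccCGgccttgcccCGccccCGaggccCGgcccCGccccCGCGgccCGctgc
The windows held 1 CG pair in Spic and 0 in Marco, against 23 in Chpt1. Their G and C content was 44.8% and 47.6%, compared with 75.6% in Chpt1. Of all windows 24.5% had a content as low as that of Spic, 33.8% as low as that of Marco and 96.7% as low as that of Chpt1. TGCTGA, which begins the element bound by Maf and Bach proteins, occurred once in Spic and in 16.1% of 32851 RefSeq promoter windows of 250 bases, searched on both strands. GAGGAA, the core of the PU box bound by PU.1 and its relatives, occurred once in Marco and in 23.3% of the windows. The longer Maf recognition element and GAGGAAGT, which contain these letters, and the shorter AP-1 form TGANTCA, the GATA forms TGATAA or its variant AGATAA, the E-box CAGCTG and the TATA box were in neither member's window. Each of these absent forms is in between 0.134% and 13% of the windows. All are matches of letters, not sites.

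The Spic promoter had 20 fetal and 2 adult calls, and 48.1% of first-batch promoters likewise had more fetal than adult calls. Of its 21 bins, 19 were called in fetal cells only, 1 in adult cells only and 1 in both. Over all first-batch contacts, 38.9% were called in fetal cells only and 35.4% in adult cells only. The choice by excess of fetal calls set most of this split, so the split supports nothing. The highest fetal score, 5.23, was at chr10:87966001-87968001, 181 kb from the promoter, with 12 fetal and 6 adult counts. This bin contains the whole captured promoter fragment of Chpt1, which makes a cholinephosphotransferase of phosphatidylcholine synthesis. A score of 5.09 was reached at chr10:87990001-87992001, 157 kb away, with 12 fetal and 5 adult counts. The called bin nearest to Spic, chr10:88032001-88034001 at 115 kb, had 12 fetal and 8 adult counts. The bin called in both populations, chr10:87996001-87998001 at 151 kb, had more adult than fetal counts, 11 against 9. The bin called in adult cells only, chr10:87964001-87966001, had 8 adult and 4 fetal counts and lies directly beside the bin of Chpt1.

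The counts behind the Spic calls were low and closer together than the calls. Over the 19 fetal-only bins the fetal count ran from 6 to 12 with a median of 8, and the adult count from 0 to 8 with a median of 5, so the ranges overlapped. The fetal count was the higher in 19 of the 21 listed bins. Summed over all 21 bins there were 170 fetal counts (exact Poisson 95% interval 145 to 198) and 103 adult counts (84.1 to 125), a ratio of 1.65. These intervals cover counting error only, and a bin is listed because a population was called there, so the sums are not a free sample of the region. Listed counts of the first batch within a chromosome stood at a ratio of 1.17. At 5 of the 19 fetal-only bins the populations differed by no more than 2 counts. The adult count was 6 or more, the lowest count that gave a fetal call, in 7 bins with no adult call. This was not particular to Spic. Over listed first-batch bins at the members' distances, a count of 6 was called in 56.0% of cases in fetal cells and 35.5% in adult cells. For a count of 7 the shares were 75.1% and 65.3%, and for 8 they were 82.8% and 80.3%. A count of 8 passed as an adult call at 183 kb but not at 115 kb.

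The Marco promoter had 18 fetal and 2 adult calls and no bin called in both. Of first-batch contacts 25.7% were called in both, but with 2 adult calls at most 2 bins of Marco could be. The choice by excess of fetal calls thus fixed a low share. The highest fetal score of Marco, 5.13, was at chr1:122238001-122240001, 162 kb from the promoter, with 13 fetal and 7 adult counts. Next came chr1:122220001-122222001 at 180 kb, with a score of 3.82 and 11 fetal against 2 adult counts. Of the bins with no adult count, the one with most fetal counts was chr1:122064001-122066001, 336 kb away, with 8 fetal and 0 adult counts. The 2 bins called in adult cells, 312 and 142 kb away, had 9 and 8 adult against 5 and 5 fetal counts. The bin at chr1:122162001-122164001 overlaps the captured promoter fragment of Steap3 by 94 bases and had 7 fetal and 2 adult counts. Steap3 encodes an endosomal ferric reductase used in iron uptake from transferrin by red cell precursors.

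The counts at Marco lay farther apart than at Spic. Over its 18 fetal-only bins the fetal count ran from 6 to 13 with a median of 8, and the adult count from 0 to 7 with a median of 2. Summed over the 20 listed bins there were 152 fetal (129 to 178) and 66 adult counts (51.0 to 84.0), a ratio of 2.30. In the fetal-only bins alone the ratio was 2.90 at Marco (142 against 49) and 1.87 at Spic (157 against 84). All 14185 fetal-only contacts of the first batch at the members' range of distances gave 2.21, so Spic stood below and Marco above that value. The median fetal and adult counts of those contacts were 9 and 4. Of them 14.3% differed by no more than 2 counts, compared with 26.3% at Spic and 11.1% at Marco.

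**Figure D1:**
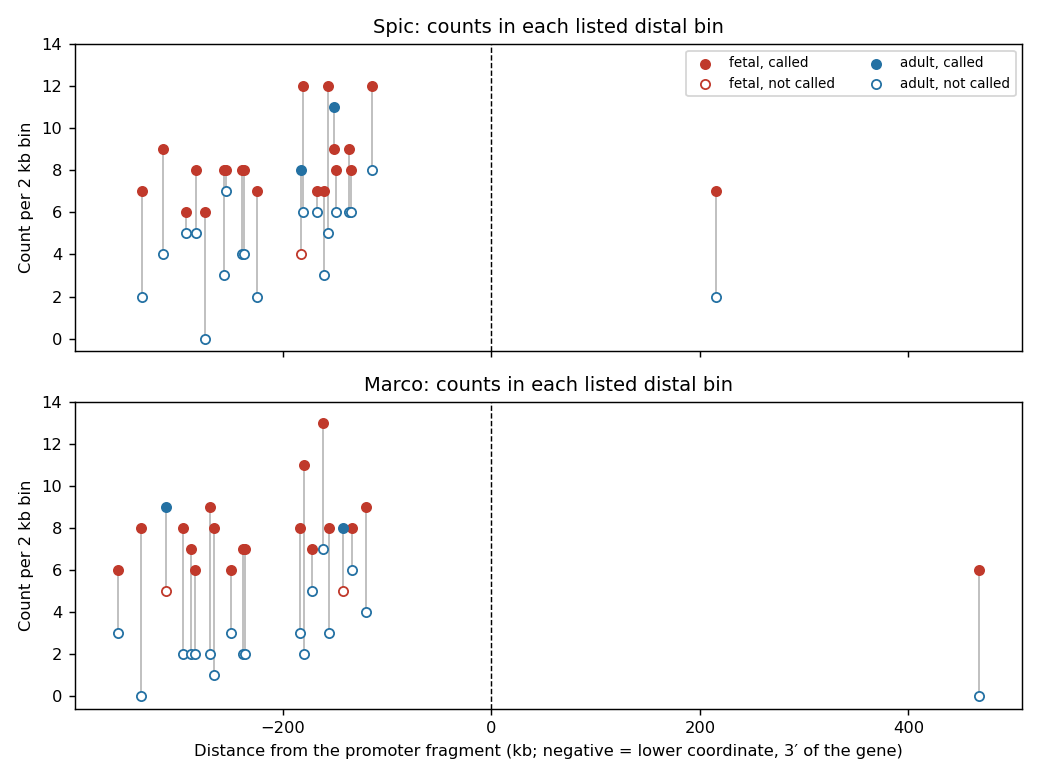
Counts in each listed 2 kb bin of Spic (top) and Marco (bottom) against the distance of the bin from the promoter fragment in kb, for fetal (red) and adult (blue) HSCs. Filled points were called and open points were not, and grey lines join the populations of a bin. The fetal point is the higher in 19 of 21 bins at Spic and in 18 of 20 at Marco, with most adult points between 2 and 8 counts.

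The members share a layout that their choice did not use. Both genes lie on the minus strand, and 19 of the 20 fetal calls of Spic and 17 of the 18 of Marco lay on the side of lower coordinates, towards and past the end of the gene. The exceptions were a bin at 215 kb on the other side of Spic (7 fetal, 2 adult counts) and one at 468 kb beyond Marco (6 and 0). Such one-sided calls were not rare, since 17.0% of 960 first-batch promoters with at least 20 calls in all and 10 fetal calls within the chromosome were at least as one-sided as Spic, and 18.8% as Marco. Neither promoter had a called bin close by. The nearest fetal call was at 115 kb for Spic and 120 kb for Marco, against a median of 47.7 kb over the 960 promoters, of which 10.9% and 10.1% had a nearest call as far away. The genes are short beside these distances, at 7755 and 30487 bp in RefSeq. The median fetal distance was 220.0 kb for Spic (order-statistic 95% interval 157 to 257) and 244 kb for Marco (172 to 288), and 178 kb over all fetal calls of the batch.

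The fetal calls of both promoters lay in several separate regions and were mostly close to the calling threshold. Bins up to 5 kb apart joined into 13 regions at each promoter, of which 9 at Spic and 8 at Marco were 1 bin wide. The longest region spanned 20 kb at Spic and 8 kb at Marco. Fetal scores had a median of 2.07 at Spic and 1.77 at Marco, against 2.02 over all fetal calls of the batch. A score of at most 2.3, within 1 unit of the threshold of 1.3, was held by 14 of the 20 fetal calls of Spic and 12 of the 18 of Marco. That is 70.0% and 66.7%, compared with 59.0% over the batch. With a p 10 times smaller, 6 fetal calls and 1 adult call were left at each promoter.

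Among promoters with at least 20 calls, the number used to rank them, Spic was the first and Marco the second by log2 ratio of fetal to adult calls with 1 added to each, at 2.81 and 2.66. Marco, with 20 calls in all, stood exactly at that minimum. Just outside the choice were Ptpla, at 38 fetal and 9 adult calls (1.96), and Zfp423, at 57 and 14 (1.95). A ratio at least that of Marco was also held by 8 promoters with fewer than 20 calls. Of the 1030 first-batch promoters with at least 20 calls, 3.88% had a log2 ratio of at least 1, and their median was 0.07.

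**Figure D2:**
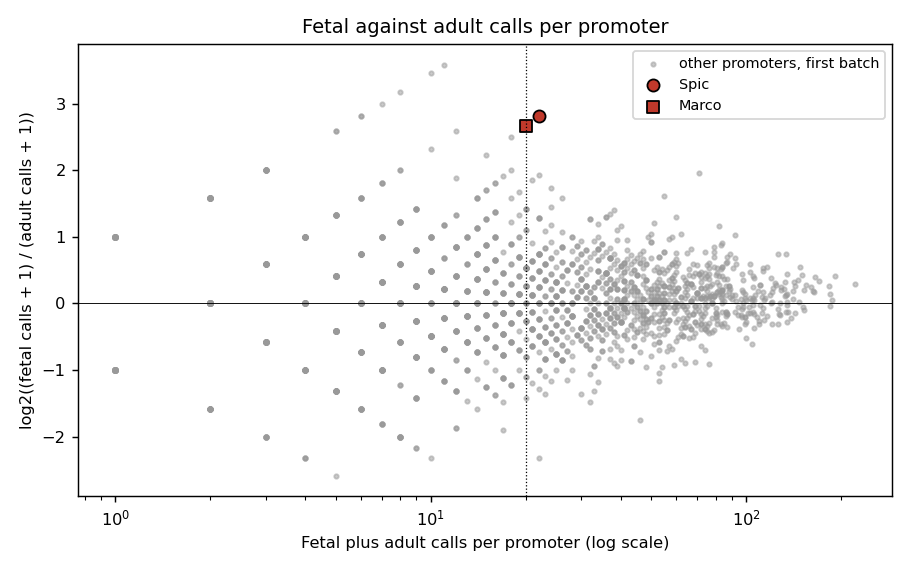
Log2 ratio of fetal to adult calls, with 1 added to each, against the sum of fetal and adult calls per promoter (log axis) for the first batch. The dotted line marks 20 calls. Spic (circle, 2.81) and Marco (square, 2.66) lie above all other promoters to the right of the line, and the spread is wider among promoters with fewer calls.

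The distal bins of both promoters carried few marks of regulatory elements. No fetal-called bin of either promoter was marked as an active enhancer in fetal or adult cells, that is 0 of 20 at Spic and 0 of 18 at Marco, which allows a share of up to 15.0% and 16.7%. Active enhancers took 12.7% of all fetal calls of the batch, and 161 of the 960 promoters (16.8%) likewise had none, where only the fetal mark was counted. The batch share lies under the limits that these numbers of bins allow. Open chromatin, from ATAC marks of fetal cells, was present at 3 of 20 fetal-called bins of Spic (15.0%, exact Clopper-Pearson 95% interval 3.21 to 37.9) and 5 of 18 of Marco (27.8%, 9.69 to 53.5). Over all fetal calls of the batch the share was 53.0%, and over fetal-only contacts at the same distances 44.0%. The interval of Spic lay below both shares, while that of Marco included both. Among the 960 promoters, 6 had a share as low as Spic and 52 as low as Marco. Neighbouring bins are not independent, so these intervals are too narrow.

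The listed bins were also sorted by the population in which they were open, without a share over the batch to set beside that sorting. At Spic 4 listed bins were open in both populations, 2 in adult cells only and 0 in fetal cells only, although 20 of its 21 bins were called in fetal cells. At Marco 3 were open in both, 2 in fetal cells only and 1 in adult cells only. The bins open in fetal cells only were those at 358 kb (6 fetal, 3 adult counts) and 184 kb (8 and 3). Active promoter marks, in both populations alike, covered the bin of Chpt1 and its neighbour at Spic and the bin overlapping Steap3 at Marco. A poised enhancer mark, in adult cells only, covered the highest-scoring Marco bin, that at 162 kb. Fetal active promoter marks lay on 1 fetal-called bin of each member, and on 15.6% of all fetal calls of the batch. The remaining 15 bins of Spic and 14 of Marco had no mark of any kind. Among fetal-called bins alone, 15 of 20 at Spic and 12 of 18 at Marco had no mark. Over all fetal calls of the batch that share was 38.3%.

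**Figure D3:**
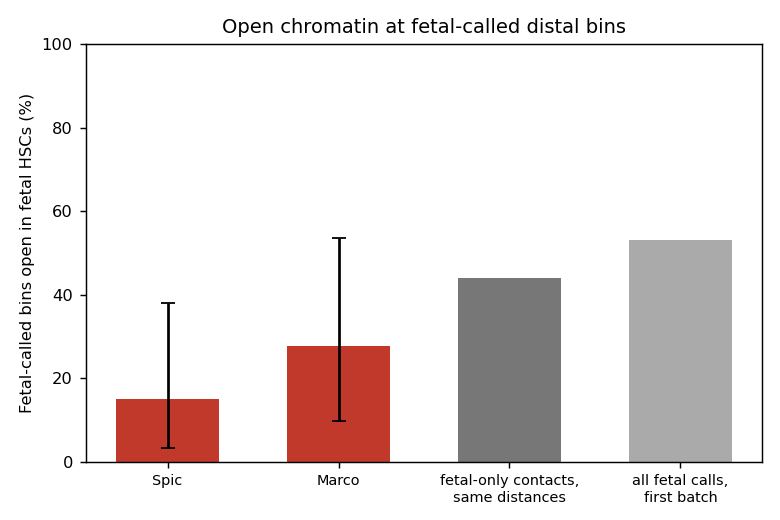
Share of fetal-called distal bins (percent) that were open in fetal HSCs, for Spic, Marco, all fetal-only contacts of the first batch at the members' distances, and all fetal calls of the first batch. Bars start at 0 and error lines are exact 95% binomial intervals for counting error. Spic at 15.0% and Marco at 27.8% are below 44.0% and 53.0%, and the interval of Marco reaches both.

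The Chpt1 promoter, captured in the second batch, gave a view of its contact with Spic from other libraries and from the other end. The bin chr10:88146001-88148001, which holds most of the Spic fragment, had 21 fetal counts (exact Poisson 95% interval 13.0 to 32.1) and 7 adult counts (2.81 to 14.4) and was called in fetal cells only, with a score of 2.88. The same pair of promoters seen from Spic, in the first batch, had 12 fetal and 6 adult counts. The lowest score above 0 was 1.3 in the first batch and 2.0 in the second, and counts of the batches were not scaled to each other. Over all its listed contacts Chpt1 had 2081 fetal and 1674 adult counts, with 73 fetal and 45 adult calls. Seen from Chpt1, the bins around chr10:88146001-88148001 went both ways. The bin directly before it had 16 fetal and 32 adult counts and was called in adult cells only, and that at chr10:88152001-88154001 had 14 and 24. The bin that follows, at chr10:88154001-88156001, was again called in fetal cells only, with 24 fetal and 11 adult counts. No other captured promoter had a listed contact with a bin within 6 kb of the Spic fragment, and none with a bin that near to the Marco fragment.

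Some of the distal bins were also listed contacts of other captured promoters. Of the 21 bins of Spic 9 were listed for Chpt1 or Gnptab. At the 7 bins met by Chpt1 4 were called in both populations and 3 in fetal cells only, with 172 fetal and 150 adult counts. At the 4 bins met by Gnptab, which encodes the enzyme that starts the mannose 6-phosphate tag of lysosomal proteins, 2 were called in both and 2 in adult cells only, with 47 fetal and 55 adult counts. At chr10:87890001-87892001, for example, Spic had 8 fetal and 3 adult counts, Chpt1 20 and 28, and Gnptab 22 and 22. Of the 20 bins of Marco 7 were also met. Steap3 met 6 of them, of which Steap3 was called in both populations at 2, in adult cells alone at 3 and in fetal cells alone at 1, with 153 fetal and 149 adult counts. Chpt1 and Steap3 were captured in the second batch, whose lowest score above 0 was 2.0, against 1.3 in the first. Without a share over second-batch contacts, their splits are counts only. Gnptab was captured in the first batch, where 25.7% of contacts were called in both and 35.4% in adult cells only.

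Promoters within 1 Mb were compared to see how far the excess of calls extended along the chromosome. Around Spic 2 promoters had more fetal calls, 3 more adult calls and 1 equal numbers. The nearest, Arl1, a small GTPase of the Golgi 46.5 kb away, had 4 fetal and 5 adult calls, and Gnptab had 15 and 20. Chpt1 had 73 fetal and 45 adult calls, a log2 ratio of 0.69 against 2.81 for Spic. Around Marco all 5 other promoters had more fetal calls, where 49.1% of all promoters did. The 5 are not all separate genes. They included the promoter of 3110009E18Rik 354 kb away with 30 fetal and 17 adult calls (0.78), and another of that gene with 6 and 3. The others were Steap3 with 26 and 19 (0.43), Insig2, an inhibitor of sterol synthesis, with 9 and 4, and Ptpn4 with only 2 and 1. In the gene order of GRCm38, Mybpc1 lies between Spic and Chpt1, and C1ql2 between Marco and Steap3. Neither was analysed here.

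**Figure D4:**
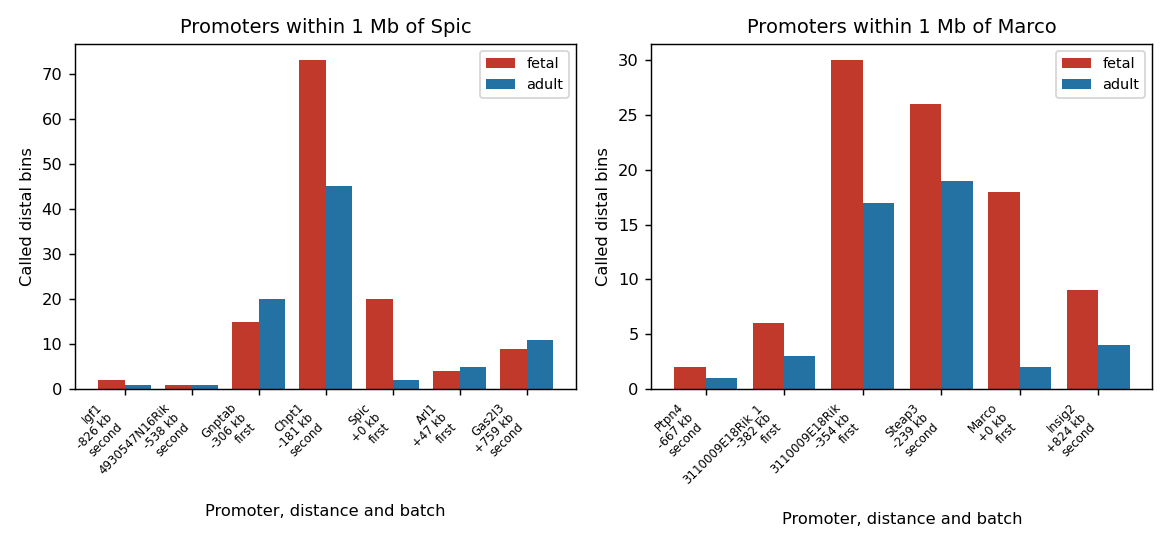
Called distal bins in fetal (red) and adult (blue) HSCs for each captured promoter within 1 Mb of Spic (left) and Marco (right), in order along the chromosome, with the distance in kb and the batch. Fetal bars exceed adult bars at 5 of the 5 neighbours of Marco and at 2 of the 6 of Spic, and the widest gap relative to the bars is at Spic and Marco themselves.

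Expression parted the 2 genes. Marco stood at 7.99 FPKM in fetal HSCs, against 0.00996 FPKM in adult HSCs, and carried the mark of differential expression given in the authors' deposited table. Its difference of log2(FPKM + 1) was 3.15, and 6.20 when 0.1 was added in place of 1. Spic stood at 1.003 FPKM in fetal cells, against 0.842 FPKM in adult cells, and was not so marked, with a difference of 0.12. FPKM, a fragment count scaled by transcript length and library size, is given once per population. The fetal excess of calls thus stood beside a difference in expression at Marco and beside nearly equal low values at Spic.

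Transcripts of other macrophage genes were also higher in the fetal population. Of 27 macrophage and Kupffer cell markers 18 had a listed promoter, and 17 of these had the higher FPKM in fetal cells, as did 47% of all promoters and 45.9% of second-batch promoters. The difference of log2(FPKM + 1) was at least 1 for 11 of the 18 and at most -1 for 0, against 8.12% and 14.6% of all promoters. Of the 18, 3 were captured in the second batch, where every promoter carries the mark of differential expression. The complement genes C1qa (9.97 fetal and 0.291 adult FPKM) and C1qb (13.9 and 0.401) were among them. So were Cd5l, a secreted macrophage protein (14.7 and 0.159), the growth factor receptor Csf1r (5.67 and 0.039) and Adgre1, the F4/80 antigen, listed as Emr1 (3.21 and 0.022). Tlr4, the endotoxin receptor, was the exception, at 0.576 and 1.297. Summed over the 18 genes the fetal level was 87.9 FPKM and the adult level 5.99 FPKM, with Timd4 listed at 0 in adult cells. The part of macrophage RNA in the expression of Marco, or of macrophage chromatin in its contacts, was not tested. In such bulk samples fewer cells of a type and less RNA per cell cannot be told apart. Of the HSC markers 12 of 14 had a listed promoter, and they ran from 3.80 to 36.3 FPKM in fetal cells, and from 3.89 to 62.5 FPKM in adult ones. Of these 12 genes 3 had the higher FPKM in fetal cells, and 2 had a difference of log2(FPKM + 1) of at most -1. Their summed level was 223 FPKM in the fetal and 331 FPKM in the adult population.

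Contact calls of the macrophage genes were split between the populations. Taking the promoter with the most calls per gene, 6 had more fetal calls, 9 more adult calls and 3 equal numbers, and the median log2 ratio was -0.01. Over all promoters 49.1% had more fetal and 40.2% more adult calls. C1qb had 52 fetal and 53 adult calls, C1qc 46 and 53, and Csf1r 16 and 18. The widest fetal excess among them was at Timd4, a receptor for dying cells, with 10 and 4, and at the chemokine receptor Cx3cr1, with 5 and 2. These counts are those of captured promoters with at least 1 listed contact.

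Genes of the pathways of Spic and Marco were compared by lists. Of 18 genes for iron and haem handling in red pulp macrophages and for the control of Spic, 6 had a listed promoter. More fetal calls were held by 4 of these, and by 49.1% of all promoters. Spic is among the 4 by its choice and adds nothing to the count. Maf, a transcription factor of macrophages, had 23 fetal and 9 adult calls with 0.773 and 0.276 FPKM, and the myeloid receptor Treml4 had 84 and 50 with 1.64 and 0 FPKM. The biliverdin reductase Blvrb had 49 and 42 calls with 29.1 and 7.48 FPKM. The iron exporter Slc40a1 had 1 fetal and 2 adult calls, with 8.33 and 0.594 FPKM. Irf8, a regulator of monocyte fate, had 4 and 7, with 7.48 and 0.925 FPKM. Bach1 and Hmox1 were not analysed here. Of 15 scavenger receptors 5 had a listed promoter, and all 5, Marco included, had the higher FPKM in fetal cells, as did 47% of all promoters. Msr1, of the same receptor class as Marco, had 2 fetal and 0 adult calls at 0.482 and 0 FPKM. Stab1 went the other way in calls, with 2 and 5 at its promoter with the most calls and 6.69 and 1.81 FPKM. PU.1, listed as Sfpi1 with 3 promoters, had more adult calls at each of them, with 5 fetal and 8 adult at the one with the most calls, and 27.2 and 16.8 FPKM.

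**Figure D5:**
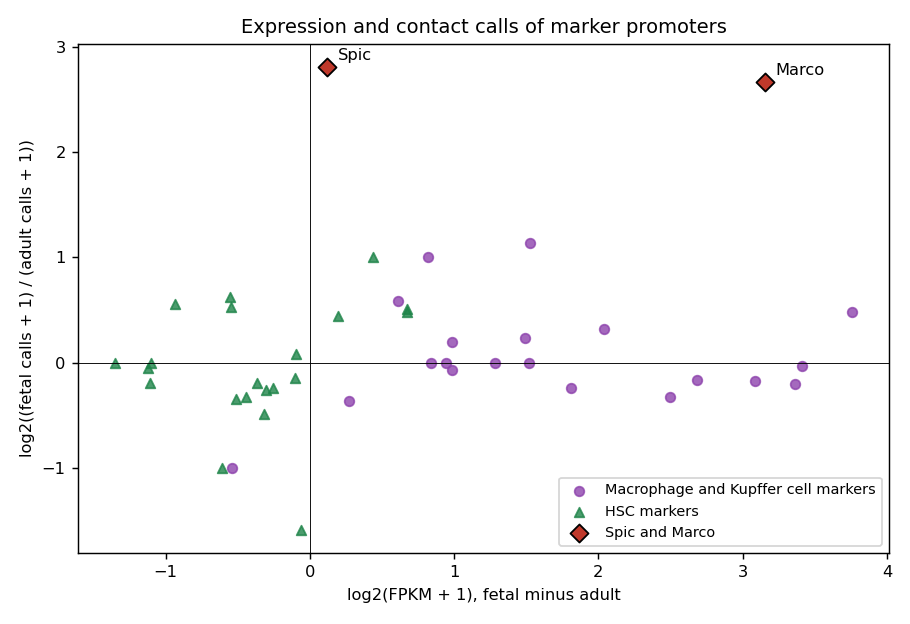
Log2 ratio of fetal to adult calls against the difference of log2(FPKM + 1) between fetal and adult HSCs, for promoters of macrophage and Kupffer cell markers (purple circles), HSC markers (green triangles) and Spic and Marco (red diamonds). Macrophage markers spread to the right, up to 3.76 for Cd5l, and lie on both sides of 0 on the vertical axis, at most 1.14 for Timd4, whereas Spic lies at 0.12 and Marco at 3.15 on the horizontal axis with ratios of 2.81 and 2.66.

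The promoters most like each member were taken by Euclidean distance over the log2 ratio of calls and the difference of log2(FPKM + 1), among 1029 other first-batch promoters with at least 20 calls. For Spic they were Zfp423 (distance 0.865), 2610019F03Rik (0.889) and Ptprg (1.07). Ptprg, a receptor tyrosine phosphatase, had 19 fetal and 5 adult calls with 0.0256 and 0 FPKM. For Marco they were Cd5l (2.26), Fcnb (2.30) and Cdh5 (2.33), all much farther away. Cd5l had 20 fetal and 14 adult calls, Fcnb, a ficolin of myeloid cells, 16 and 10, and Cdh5, the cadherin of endothelial junctions, 38 and 22. They had FPKM differences of 3.76, 2.08 and 1.81 and log2 ratios of calls of 0.49, 0.63 and 0.76. The members were chosen by that ratio, so every promoter compared with Marco, except Spic, had to lie under it. The distances use the same ratio and are a description only.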

How the data were processed

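The members and gene lists were chosen with earlier results of these data known. Trim Galore 0.41, Bowtie2 2.2.2 and the build mm9 are named, without their roles, per the submitters' processing notes. For each contact, population and batch the authors deposited 1 count. Whether it sums or averages libraries is not stated. The authors deposited scores that behave as −log10 p-values, whose lowest value above 0 was 1.3 in the first batch and 2.0 in the other. FPKM and the 0 or 1 marks of bins (the unit of these marks is other) were deposited by the authors without methods, so their depth is unknown. The first batch totalled 1312829 fetal and 1098957 adult counts over listed contacts, which are not library depths.

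Calls, counts, distances between midpoints and overlaps with other captured fragments were computed with Python 3.11.15, pandas 2.3.3 and scipy 1.17.1, checked on simulated data. No test was possible with pooled values. Named promoters follow a written rule: the members, captured promoters within 1 Mb, the next promoters by rank, the nearest by pattern, and the lists. RefSeq GRCm38.p6 served for names, of which 3348 of 3374 matched, and for promoter sequences, with none of its coordinates set against mm9. Every column of values could be assigned, leaving 0 unassigned. Alternatives covered the score, merging of bins, distance, scaling and pseudocounts.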

Additional observations from a re-analysis of the deposited data

How the results depend on the processing

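Of 26 alternative values 21 stayed within the 95% counting interval of the value reported, or within 1.5 times it for a count. The 21 include those for contacts at least 20 kb from the promoter. These could not change, since the nearest listed bins lie at 115 kb for Spic and 120 kb for Marco. The log2 ratio of calls at Spic and at Marco kept its direction under each alternative. The members were chosen by this ratio and the alternatives reuse the same calls, so the kept direction supports nothing. At a p 10 times smaller the ratio was 1.81 at both. That counted as within the counting interval, which was wide, at 1.28 to 6.46 for Spic and 1.11 to 6.32 for Marco. The interval takes bins as independent. Scaling by listed counts within a chromosome moved the log2 ratio of counts from 0.72 to 0.49 at Spic and from 1.19 to 0.97 at Marco. At a p 10 times smaller the open share of fetal-called bins at Marco was 16.7% (1 of 6) in place of 27.8% (5 of 18), within a wide interval. The difference in expression rose by construction with a smaller pseudocount. With 0.1 and 0.01 FPKM it was 0.23 and 0.25 at Spic and 6.20 and 8.65 at Marco. Over all listed promoters of macrophage genes 7 had more fetal and 9 more adult calls. At a p 10 times smaller 4 had more fetal and 11 more adult calls, and the cause was not tested. Each fetal or adult call of either member rested on 6 to 13 counts, which limits its precision, and library depth is unknown.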

Other observations

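Markers of other blood lineages also differed in level between the populations. Of 12 erythroid markers 9 had a listed promoter, and all 9 had the higher FPKM in fetal cells, as did 47% of all promoters, with the red cell transcription factor Klf1 at 24.0 fetal and 2.40 adult FPKM. Of the 9, 6 were captured in the second batch, all of whose promoters are marked as differentially expressed and 45.9% of which had the higher fetal FPKM. By calls 4 had more fetal calls, 3 more adult calls and 2 equal numbers. Over all promoters 49.1% had more fetal and 40.2% more adult calls. Epor, the erythropoietin receptor, had 16 fetal and 5 adult calls, whereas Klf1 had 30 and 39. The 4 listed megakaryocyte markers had the higher FPKM in adult cells, with Pf4 at 14.2 and 113 FPKM. More adult calls were held by 3 of them, and by 40.2% of all promoters. Vwf had 1 fetal and 5 adult calls and Itga2b 1 and 4.

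Of 5 endothelial markers 4 had a listed promoter, and 3 of these had the higher FPKM in fetal cells, as did 47% of all promoters. Pecam1 went the other way, at 5.82 fetal and 7.90 adult FPKM with 5 fetal and 2 adult calls. Another promoter of Pecam1 had 4.74 and 5.43 FPKM with 7 and 10 calls. Cdh5 was listed at 2.53 fetal and 0.00611 adult FPKM and had 38 fetal and 22 adult calls, and Lyve1 at 0.579 and 0.00159 FPKM had 16 and 11. Kdr was listed at 0.585 and 0.583 FPKM, with 1 call in each population. Of 9 neutrophil and mast cell markers 6 had a listed promoter, all with the higher FPKM in fetal cells, as had 47% of all promoters. Of the 6, 5 were captured in the second batch, where 45.9% of promoters had the higher fetal FPKM. By calls 3 had more fetal and 2 more adult calls, against 49.1% and 40.2% of all promoters. None of the 7 lymphoid or 5 hepatocyte markers was analysed here.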
